A study of Homo sapiens with 8 samples.

Results

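The genes described here are 41 genes of the lysosome: 8 cathepsins, 7 glycosidases, 7 other hydrolases or their helper proteins, 7 proteins of the lysosomal membrane, and 12 subunits or accessory proteins of the vacuolar proton pump (V-ATPase). They were chosen by gene symbol, and all 41 were found among the 16295 genes of the deposited expression table and among the 14200 genes that passed the filter on low reads. RNA was sequenced from MM1.S, an established human multiple myeloma cell line that resembles malignant plasma cells. The cells had been kept for 24 h with 0.5 µM MS177, 0.5 µM MS177N1, 0.5 µM C24, or the solvent DMSO, which is the control of all 3 compounds. Each group had 2 libraries, 8 in all, and no source used here says whether the 2 libraries of a group came from separate cultures, and p-values therefore cover no more than the spread among these libraries. As background, MS177 is a degrader that carries EZH2, the methyltransferase of Polycomb repressive complex 2, to a ubiquitin ligase. C24 is the EZH2 inhibitor it was built on, without the ligase-recruiting part, and MS177N1 is a close relative of MS177 that leaves EZH2 undegraded.

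The lysosome breaks down proteins, glycans and lipids delivered by endocytosis and autophagy. Its hydrolases work at acid pH, which the proton pump maintains: the cytosolic V1 sector of the pump splits ATP and the membrane-embedded V0 sector carries protons inward. Cathepsins are the proteases of this compartment, glycosidases remove single sugars from glycoproteins and glycolipids, and heavily glycosylated membrane proteins line the inner face. Many of these genes carry CLEAR elements in their promoters, sites with a CACGTG core that are bound by the transcription factors TFEB, TFE3 and MITF. Plasma cells, which secrete large amounts of antibody, are known to rely on the lysosome and autophagy beside the proteasome.

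All levels below are normalized reads, which are reads recovered from the deposited log2 values and divided by each library's size factor, and fold changes are on the log2(normalized reads + 1) scale. A gene was called, and is said to have risen or fallen, where the limma p adjusted over all 14200 genes was under 0.05. The libraries held between 20000665 and 26619099 reads in listed genes, and replicates correlated with Pearson's r between 0.985 and 0.987 across genes. The first principal component, with 63.3% of the variance, set both MS177 libraries apart from the other 6, and DMSO replicate 2 stood apart on the second. EZH2 mRNA itself, which a degrader of the protein need not change, had 2819 and 2881 normalized reads with MS177 and 2676 and 2687 with DMSO (log2 fold change 0.09, limma adjusted p = 0.155).

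The sequences below show the CACGTG core of the CLEAR element where it occurs in the members' own promoters. Promoter windows of 250 bases before to 50 bases after the gene start were taken from RefSeq on GRCh38.p14. They were at hand for 31 of the 41 genes, and 9 of these 31 genes (29%) held CACGTG, a palindrome that reads the same on both strands. Over all 27305 genes with such a window the share was 8.77%, and over the 10582 of them that are in the expression table it was 12.5%. A match is a description of the letters, not a shown binding site. For each of the 9 genes 1 match is printed, the nearest to the gene start among those that end before it, 5′ to 3′ on the gene's own strand, with the core in capitals.
LAMP1, chr13:113297199-113297228, plus strand: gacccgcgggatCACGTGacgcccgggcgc
MCOLN1, chr19:7522598-7522627, plus strand: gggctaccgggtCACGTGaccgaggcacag
CD63, chr12:55729172-55729201, minus strand: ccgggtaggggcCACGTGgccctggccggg
CTSA, chr20:45891298-45891327, plus strand: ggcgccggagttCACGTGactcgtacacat
CTSD, chr11:1763957-1763986, minus strand: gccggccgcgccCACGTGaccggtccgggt
GAA, chr17:80101538-80101567, plus strand: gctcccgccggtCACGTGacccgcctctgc
NEU1, chr6:31862930-31862959, minus strand: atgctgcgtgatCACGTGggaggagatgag
ATP6V0B, chr1:43974909-43974938, plus strand: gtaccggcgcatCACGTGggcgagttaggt
ATP6V0D1, chr16:67481199-67481228, minus strand: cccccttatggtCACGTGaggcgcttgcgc

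The core begins 14 bases before the gene start in MCOLN1 and 180 bases before it in CD63, the nearest and the farthest of the 9 matches printed. In GAA and MCOLN1 the core is flanked by GT before and AC after, which 2 of the 43 members' promoter windows (4.65%) and 0.353% of all 35116 windows hold. With MS177, the 9 genes did not move together: 2 rose (CD63, ATP6V0D1), 3 fell (CTSA, LAMP1, ATP6V0B) and 4 were not called (CTSD, GAA, NEU1, MCOLN1). Of the 22 members whose window lacks the core, 6 rose, 13 fell and 3 were not called. Over all genes tested, 28.8% rose and 28.9% fell. No window was at hand for CTSB, CTSS, HEXA, ATP6V1A and ATP6V1H, which rose. The same holds for ASAH1, which fell, and for LAMP2, PSAP, ATP6V1B2 and ATP6V1C1, which were not called. Genes with and without the core were not tested against each other.

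MS177 moved the lysosomal genes in both directions. Against DMSO, 13 of the 41 rose, 17 fell and 11 were not called. CD68 rose most, 4.81-fold, and CTSC fell most, 1.75-fold. The 30 called genes are 73.2% of the members. Among all 14200 genes tested, 57.8% were called with MS177 against DMSO (28.8% higher and 28.9% lower), and among the 11620 genes with at least 50 normalized reads in at least 2 libraries, a level all 41 members reached, 66.0% were. The members' share is above both, but no set of genes matched to them in reads was compared. The difference is therefore not read as a property of the members. The median size of their log2 fold change was 0.31, against 0.41 over all 14200 genes tested, which include genes with fewer reads. CD68 was the 1 member that changed by 2-fold or more. Of all 14200 genes, 14.2% were called with a change of that size. In a fit of the 11620 genes with at least 50 normalized reads, 945 rose and 467 fell by 2-fold or more. The median log2 fold change was -0.10 over the members and 0.0048 over all genes.

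**Figure D1:**
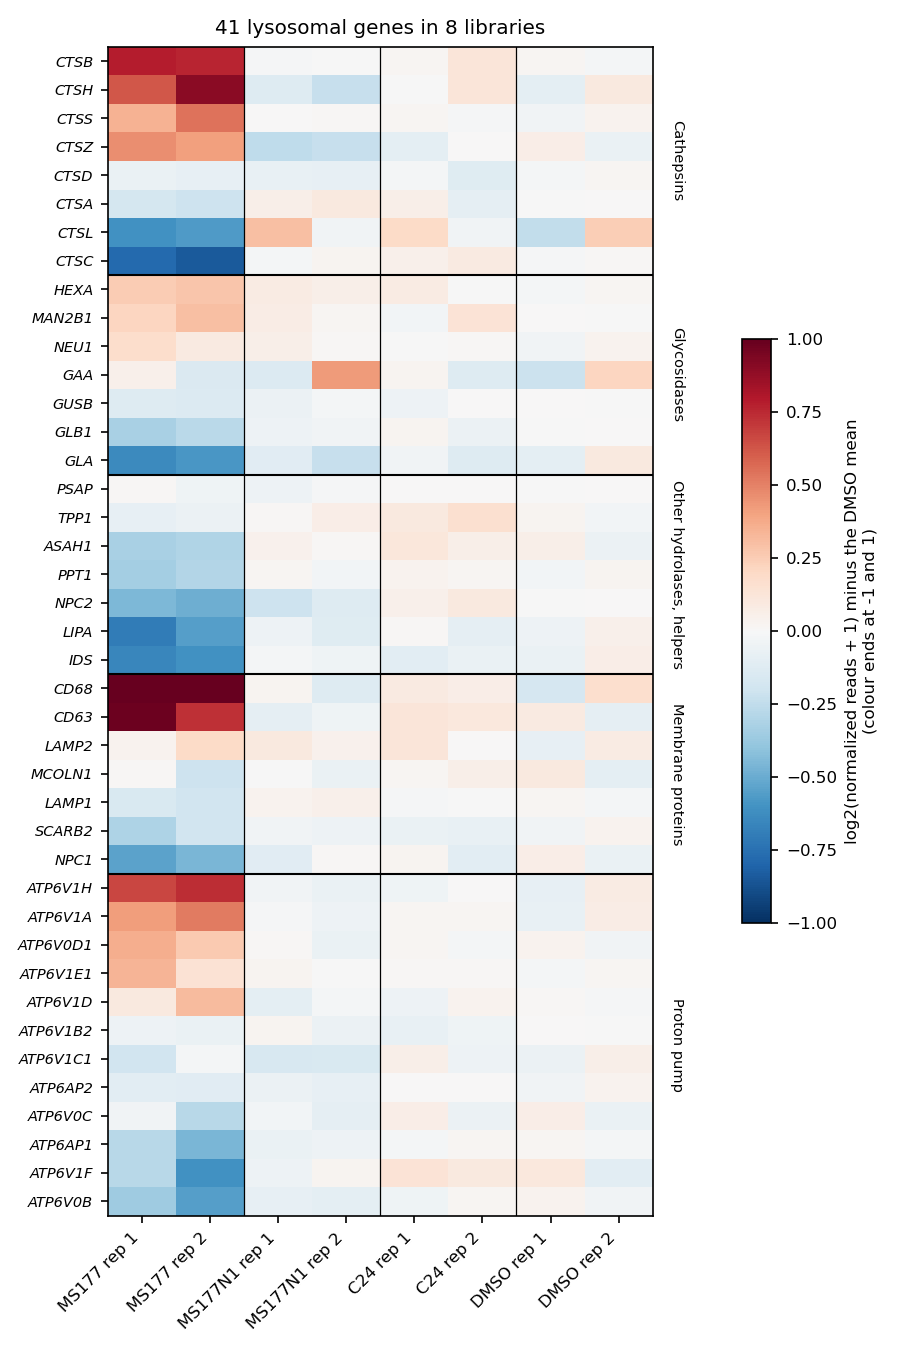
Heat map of log2(normalized reads + 1) minus the DMSO mean, for 41 genes (rows, by role and by fold change) and 8 libraries (columns), with the colour ending at -1 and 1. Both MS177 columns differ from the other 6, with 14 genes above and 19 genes below all of them.

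Both MS177 libraries lay above all 6 other libraries in 14 members and below all 6 in 19, and they overlapped with the others in 8. Over all genes tested, 33.2% lay above and 31.6% below, 64.7% in all. As a share of all listed reads, the 41 genes together held 0.615% and 0.601% in the MS177 libraries, 0.576% and 0.574% in the MS177N1 libraries, 0.583% and 0.584% in the C24 libraries, and 0.581% and 0.583% in the DMSO libraries. The summed share was thus slightly higher in both MS177 libraries. In summed normalized reads they held 131858 and 128310 in MS177 libraries, 129524 and 129635 in MS177N1 libraries, 132843 and 132156 in C24 libraries, and 132234 and 131869 in DMSO libraries. On that scale the MS177 libraries spanned those of MS177N1 and lay just below those of DMSO. In these bulk libraries, more RNA per cell and more cells of a kind that express a gene cannot be told apart.

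**Figure D2:**
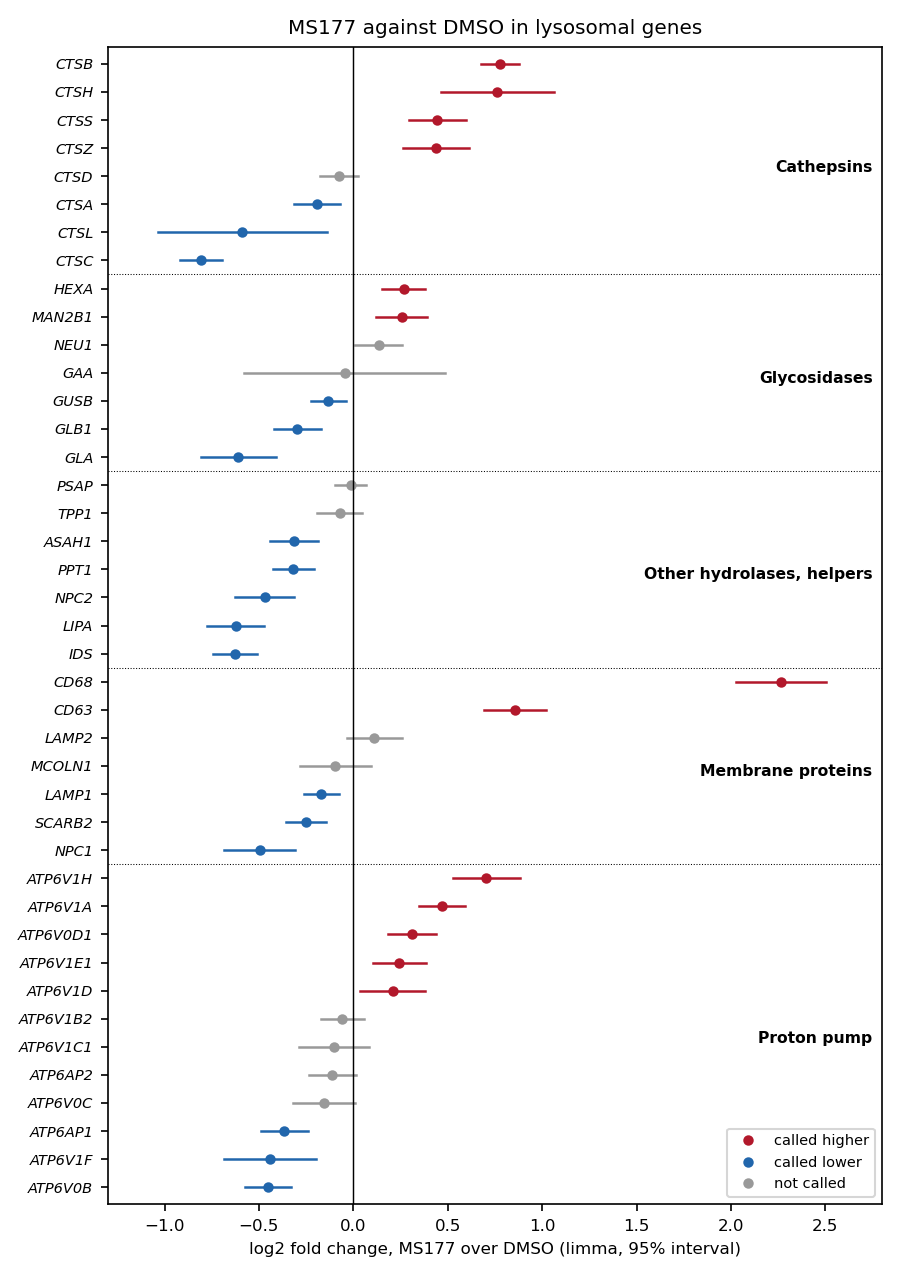
Log2 fold change of MS177 over DMSO for each gene (point) with its 95% interval from limma (line), grouped by role. Red marks the 13 genes that rose, blue the 17 that fell and grey the 11 not called, and every role but the other hydrolases holds both red and blue genes.

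The cathepsins split. CTSB, CTSH, CTSS and CTSZ rose with MS177, CTSC, CTSL and CTSA fell, and CTSD was not called. CTSB, a cysteine protease, had 8341 and 8216 normalized reads with MS177, 4792 and 4813 with MS177N1, 4897 and 5263 with C24, and 4888 and 4780 with DMSO. Its MS177 libraries stood above all 6 others, which lay close together. The log2 fold change of MS177 over DMSO was 0.78 (SE 0.05, limma adjusted p = 1.87e-09), from means of 8279 ± 88.5 and 4834 ± 76.3 (SD, n = 2 each). CTSH, a cysteine aminopeptidase, had 304 and 369 normalized reads with MS177, 180 and 168 with MS177N1, 197 and 215 with C24, and 184 and 212 with DMSO. It rose by nearly as much as CTSB, with far fewer reads and a wider error (log2 fold change 0.76, SE 0.14, limma adjusted p = 0.000237).

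CTSS, the cysteine protease that trims the invariant chain of MHC class II in antigen-presenting cells, had 1756 and 2009 normalized reads with MS177, 1383 and 1394 with MS177N1, 1398 and 1370 with C24, and 1345 and 1415 with DMSO. The 6 libraries without MS177 lay within a narrow range below both MS177 libraries (log2 fold change 0.44, SE 0.07, limma adjusted p = 5.52e-05). CTSZ, a carboxypeptidase, rose 1.35-fold to 955 ± 27.5 normalized reads with MS177, against 706 ± 46.4 with DMSO (SD, n = 2 each).

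CTSC, the dipeptidyl peptidase that activates serine proteases of immune cells, went the other way. It had 1849 and 1770 normalized reads with MS177, 3120 and 3227 with MS177N1, 3274 and 3372 with C24, and 3140 and 3195 with DMSO. The MS177 libraries lay below all others, and the fall was the largest among the members (log2 fold change -0.81, SE 0.05, limma adjusted p = 3.54e-09). CTSA, the carboxypeptidase that protects GLB1 and NEU1 in a complex, had 2503 and 2455 normalized reads with MS177, 2946 and 3023 with MS177N1, 2944 and 2665 with C24, and 2815 and 2846 with DMSO. It fell 1.14-fold (limma adjusted p = 0.00933), a call that was lost when libraries were scaled by total reads (log2 fold change -0.11, limma adjusted p = 0.120).

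CTSL, a cysteine endopeptidase, was measured at few reads: 71.8 and 73.9 normalized reads with MS177, 135 and 107 with MS177N1, 126 and 107 with C24, and 92.5 and 131 with DMSO. The DMSO libraries differed more from each other than the lower of them did from MS177. The fall of 0.59 on the log2 scale (SE 0.21, limma adjusted p = 0.0255) shrank to 0.34 without DMSO replicate 2 and was then not called (limma adjusted p = 0.249). The annotation also holds 5 named pseudogenes of CTSL, among which the counting could have split reads. CTSD, the main aspartic protease of lysosomes, had 6828 and 6746 normalized reads with MS177 and 7080 and 7239 with DMSO, and the 95% interval of its log2 fold change ran from -0.18 to 0.02. In GENCODE 29, 41.7% of the exonic bases of CTSD are shared with another gene on the same strand.

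The glycosidases also split, and the median size of their log2 fold change was 0.26. HEXA and MAN2B1 rose, GLA, GLB1 and GUSB fell, and NEU1 and GAA were not called. HEXA, the alpha subunit of beta-hexosaminidase, which degrades GM2 ganglioside, had 2868 and 2905 normalized reads with MS177, 2546 and 2502 with MS177N1, 2540 and 2393 with C24, and 2370 and 2429 with DMSO. All 6 libraries without MS177 were lower (log2 fold change 0.27, SE 0.05, limma adjusted p = 0.000546). MAN2B1, which removes mannose from glycoproteins, had 2494 and 2641 normalized reads with MS177, 2262 and 2173 with MS177N1, 2108 and 2358 with C24, and 2154 and 2144 with DMSO. Here too the MS177 libraries lay above all others, and the rise was 1.19-fold (limma adjusted p = 0.00247).

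GLA, the alpha-galactosidase that is deficient in Fabry disease, fell most in this class. It had 432 and 450 normalized reads with MS177, 621 and 575 with MS177N1, 657 and 616 with C24, and 630 and 720 with DMSO. Both MS177 libraries lay below all others (log2 fold change -0.61, SE 0.09, limma adjusted p = 3.81e-05). GLB1, the beta-galactosidase whose activity at near-neutral pH is used as a senescence stain, had 1622 and 1684 normalized reads with MS177, 1963 and 1982 with MS177N1, 2071 and 1951 with C24, and 2027 and 2033 with DMSO. Every library without MS177 was higher than both with it (log2 fold change -0.30, SE 0.06, limma adjusted p = 0.000413).

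GUSB, the beta-glucuronidase often used as a reference gene in PCR, had 7464 and 7419 normalized reads with MS177, 7837 and 8043 with MS177N1, 7869 and 8189 with C24, and 8204 and 8124 with DMSO. The fall was 1.10-fold (limma adjusted p = 0.0152). It was not called under scaling by total reads (log2 fold change -0.05, limma adjusted p = 0.359), and the annotation holds 10 named pseudogenes of GUSB. NEU1, the lysosomal sialidase, had 2243 and 2107 normalized reads with MS177 and 1939 and 2026 with DMSO. Its MS177 libraries lay above all 6 others, but the difference missed the threshold (log2 fold change 0.13, limma adjusted p = 0.0627). GAA, the acid alpha-glucosidase that degrades glycogen, had 72.9 and 63.6 normalized reads with MS177 and 60.5 and 81.7 with DMSO. At that depth the interval of its log2 fold change ran from -0.58 to 0.48, and changes of either sign within it were not detectable.

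Of the 7 other hydrolases and helpers, 5 fell, none rose, and PSAP and TPP1 were not called, where 28.9% of all genes fell and 28.8% rose. The median log2 fold change was -0.32, the lowest of the 5 roles. IDS, the iduronate sulfatase that acts on heparan and dermatan sulfate, had 2320 and 2401 normalized reads with MS177, 3593 and 3539 with MS177N1, 3386 and 3485 with C24, and 3483 and 3813 with DMSO. The MS177 libraries were far below the lowest of the others (log2 fold change -0.63, SE 0.06, limma adjusted p = 1e-07). Another copy, IDSP1, is annotated as a pseudogene of IDS, with which reads could be shared.

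LIPA, the acid lipase that hydrolyses cholesteryl esters and triglycerides, had 1053 and 1166 normalized reads with MS177, 1651 and 1567 with MS177N1, 1719 and 1605 with C24, and 1647 and 1773 with DMSO. Its fall was close to that of IDS in size (log2 fold change -0.62, SE 0.07, limma adjusted p = 1.82e-06). NPC2, the soluble protein that hands cholesterol on to NPC1, had 672 and 657 normalized reads with MS177, 796 and 841 with MS177N1, 953 and 985 with C24, and 919 and 921 with DMSO. MS177 gave the lowest levels and MS177N1 the next lowest, without overlap (MS177 over DMSO -0.47 on the log2 scale, SE 0.07, limma adjusted p = 5.08e-05).

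PPT1, which removes palmitate from proteins, fell 1.25-fold (limma adjusted p = 5.38e-05), and ASAH1, the acid ceramidase, fell 1.24-fold (limma adjusted p = 0.000305). Of the exonic bases of PPT1, 23.4% lie opposite CAP1. The strand of the counting is not given in the sources used here, so reads of such pairs may be mixed. PSAP, the precursor of the saposins that present lipids to hydrolases, took more reads than any other member, with 22679 and 21823 normalized reads with MS177, 21694 and 22329 with MS177N1, 22554 and 22481 with C24, and 22446 and 22516 with DMSO. The MS177 libraries spanned those of DMSO, and the interval of the log2 fold change, -0.10 to 0.07, was the narrowest of the 41. TPP1, a tripeptidyl peptidase, had 1978 and 2011 normalized reads with MS177 and 2139 and 2059 with DMSO, and its interval ran up to 0.05 from a log2 fold change of -0.07.

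Among the membrane proteins, CD68 and CD63 rose, NPC1, SCARB2 and LAMP1 fell, and LAMP2 and MCOLN1 were not called. CD68, a LAMP-family glycoprotein best known from macrophages, had 1585 and 1471 normalized reads with MS177, 322 and 289 with MS177N1, 336 and 331 with C24, and 282 and 356 with DMSO. The 6 libraries without MS177 shared 1 low level (MS177 over DMSO 2.27 on the log2 scale, SE 0.11, limma adjusted p = 1.5e-10). Of the exonic bases of CD68, 81.7% are shared with another annotated gene on the same strand, so its reads cannot be assigned to CD68 alone.

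Some other genes of monocytes, macrophages and granulocytes were higher in the same libraries. Of 15 such markers 6 were in the table. ITGAM had 61.1 and 72.9 normalized reads with MS177 and 14.3 and 12.5 with DMSO, and it rose (limma adjusted p = 0.000571). AIF1 (51.4 and 42.1 with MS177, 3.3 and 0 with DMSO), CD163 (24.6 and 24.3 with MS177, 0 and 0.961 with DMSO) and S100A9 (57.9 and 40.2 with MS177, 7.7 and 9.61 with DMSO) passed the filter on low reads only through their MS177 libraries, so no test of them is given. The summed level over the 6 was between 194 and 205 normalized reads in MS177 libraries, 18.9 and 30.9 in MS177N1 libraries, 21.0 and 38.5 in C24 libraries, and 33.0 and 34.6 in DMSO libraries. That sum includes AIF1, CD163 and S100A9, so it is a description and no separate support for a rise. CSF1R, another marker of this list, had 0 and 3.74 normalized reads with MS177 and 0 and 1.92 with DMSO, and CD14 had 9.64 and 10.3 with MS177 and 7.7 and 9.61 with DMSO. Of 10 markers of plasma cells, 8 were called lower and 1 higher, where 28.9% of all genes were called lower and 28.8% higher. Their log2 fold changes lay between -1.22 and 0.11, with a median of -0.38. SDC1, the plasma-cell proteoglycan CD138, had 12569 and 12278 normalized reads with MS177 and 28444 and 29160 with DMSO. Of the markers of T and NK cells, CD3E and GNLY fell, and TRAC, at 35.4 and 37.4 normalized reads with MS177 and 1.1 and 0 with DMSO, passed the filter only through its MS177 libraries. Of 3 tested stromal or epithelial markers 1 rose. The part of these lists in the levels of CD68 and the other members was not tested.

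CD63, a tetraspanin of late endosomes and exosomes, had 5942 and 4989 normalized reads with MS177, 2823 and 2919 with MS177N1, 3273 and 3234 with C24, and 3197 and 2824 with DMSO. Even the lower MS177 library stood well above the others (log2 fold change 0.86, SE 0.08, limma adjusted p = 4.38e-07). NPC1, the membrane protein that exports cholesterol from the lysosome, had 506 and 536 normalized reads with MS177, 679 and 740 with MS177N1, 749 and 685 with C24, and 770 and 701 with DMSO. It fell together with its partner NPC2 and with LIPA, which releases the cholesterol both carry (NPC1 log2 fold change -0.50, SE 0.09, limma adjusted p = 0.000176).

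LAMP1, a membrane glycoprotein often used as a marker of the organelle, had 6088 and 5929 normalized reads with MS177, 6921 and 7003 with MS177N1, 6706 and 6729 with C24, and 6843 and 6688 with DMSO. The fall was small, 1.13-fold (limma adjusted p = 0.00326), and was not called under scaling by total reads (log2 fold change -0.09, limma adjusted p = 0.102). SCARB2, the receptor that carries glucocerebrosidase to lysosomes, had 6100 and 6629 normalized reads with MS177, 7366 and 7285 with MS177N1, 7240 and 7189 with C24, and 7397 and 7737 with DMSO. It fell 1.19-fold without overlap between the groups (limma adjusted p = 0.000381), and its log2 fold change of -0.25 became -0.17 under scaling by total reads. LAMP2, the LAMP protein needed for autophagosome fusion, overlapped between the groups, as did the calcium channel MCOLN1. Their log2 fold changes were 0.11 (95% interval -0.04 to 0.26) and -0.10 (95% interval -0.28 to 0.09).

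**Figure D3:**
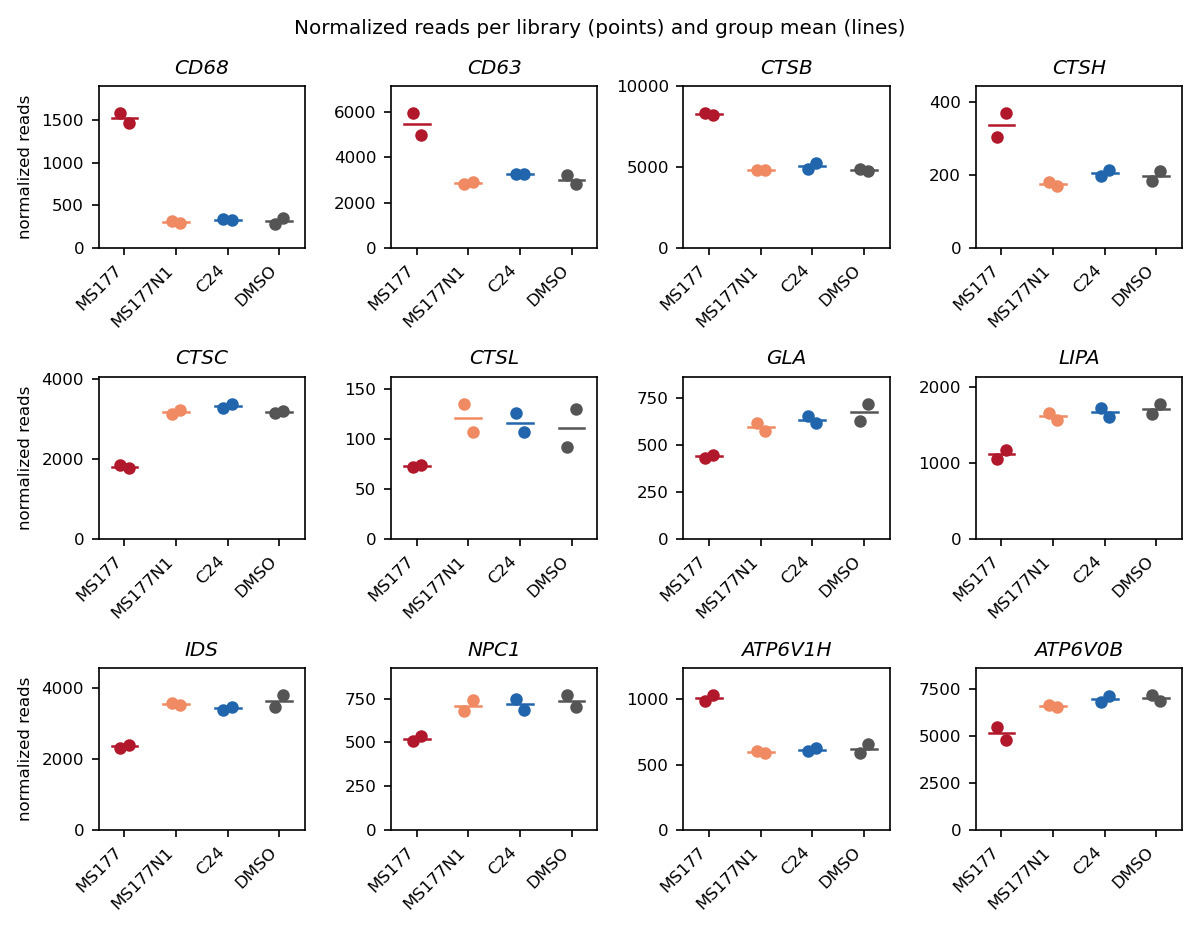
Normalized reads (vertical axes, from 0) of 12 members in each library (points) with the mean of the 2 libraries (lines), for MS177, MS177N1, C24 and DMSO. In CD68, CD63, CTSB, CTSH and ATP6V1H both MS177 points lie above the other 6 points, and in CTSC, CTSL, GLA, LIPA, IDS, NPC1 and ATP6V0B below them.

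Of the 12 proton pump genes, 5 rose, 3 fell and 4 were not called, where 28.8% of all genes rose and 28.9% fell. The rises and falls did not follow the sectors strictly. In the V1 sector ATP6V1H, ATP6V1A, ATP6V1E1 and ATP6V1D rose, ATP6V1F fell, and ATP6V1B2 and ATP6V1C1 were not called. In the V0 sector ATP6V0D1 rose, ATP6V0B fell and ATP6V0C was not called. Of the accessory proteins ATP6AP1 fell and ATP6AP2 was not called. The sectors were not tested against each other.

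ATP6V1H, the regulatory V1 subunit needed for the pump's activity, had 987 and 1032 normalized reads with MS177, 604 and 590 with MS177N1, 603 and 623 with C24, and 586 and 656 with DMSO. The 6 other libraries lay well below both MS177 libraries (log2 fold change 0.70, SE 0.08, limma adjusted p = 2.7e-06). ATP6V1A, the catalytic subunit that splits ATP, had 4698 and 5045 normalized reads with MS177, 3491 and 3401 with MS177N1, 3575 and 3567 with C24, and 3345 and 3700 with DMSO. It rose without overlap (log2 fold change 0.47, SE 0.06, limma adjusted p = 3.66e-06), whereas ATP6V1B2, the B subunit that alternates with it in the ATP-binding ring, had 2741 and 2723 normalized reads with MS177 and 2861 and 2833 with DMSO. The interval of ATP6V1B2, -0.17 to 0.05 on the log2 scale, does not reach the rise of ATP6V1A, although the difference between both genes was not tested.

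ATP6V0D1, the V0 subunit that couples the sectors, had 2844 and 2646 normalized reads with MS177, 2235 and 2116 with MS177N1, 2246 and 2183 with C24, and 2263 and 2161 with DMSO. Its MS177 libraries were higher than all others (log2 fold change 0.31, SE 0.06, limma adjusted p = 0.000308). The stalk subunits ATP6V1E1, 1.18-fold (limma adjusted p = 0.0052), and ATP6V1D, 1.15-fold (limma adjusted p = 0.0396), rose, with both MS177 libraries above all others. Their calls depended on which libraries were kept. Without MS177 replicate 1 the log2 fold change of ATP6V1E1 was 0.15 in place of 0.24 (limma adjusted p = 0.0687), and without MS177 replicate 2 that of ATP6V1D was 0.10 in place of 0.21 (limma adjusted p = 0.351). Without MS177 replicate 1 that of ATP6V1D was 0.31, and its call was lost on leaving out any other single library.

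ATP6V0B, a proteolipid subunit of the proton-carrying ring, had 5519 and 4812 normalized reads with MS177, 6650 and 6584 with MS177N1, 6828 and 7133 with C24, and 7205 and 6894 with DMSO. Both MS177 libraries were lower than all others (log2 fold change -0.45, SE 0.06, limma adjusted p = 6.31e-06). ATP6V0C, the other ring subunit measured, had 5665 and 4776 normalized reads with MS177 and 6074 and 5528 with DMSO. Its libraries overlapped (log2 fold change -0.16, limma adjusted p = 0.0994), 57.5% of its exonic bases are shared with another gene on the same strand, and 4 pseudogenes of it are named.

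ATP6V1F, a small V1 subunit of the central stalk, had 3695 and 2948 normalized reads with MS177, 4339 and 4565 with MS177N1, 4934 and 4787 with C24, and 4834 and 4159 with DMSO. The 2 MS177 libraries differed widely but were both below the rest (log2 fold change -0.44, SE 0.11, limma adjusted p = 0.00688). The log2 fold change was -0.28 without MS177 replicate 2, and 23.7% of the exonic bases of ATP6V1F lie opposite KCP. ATP6AP1, the accessory glycoprotein that assists assembly of the pump, had 3072 and 2720 normalized reads with MS177, 3566 and 3593 with MS177N1, 3675 and 3773 with C24, and 3781 and 3669 with DMSO. It fell 1.29-fold (limma adjusted p = 5.89e-05), while ATP6AP2, the prorenin receptor, had 1683 and 1678 normalized reads with MS177 and 1772 and 1860 with DMSO (log2 fold change -0.11, limma adjusted p = 0.116).

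Across the 12 pump genes, Spearman's rho between the log2 fold change and the transcript length was 0.39, and with GC content it was -0.46, against 0.15 and -0.09 over 12595 genes with a known length. With the trends over length and GC taken out of all genes, ATP6V0B and ATP6V1F still fell, by 0.27 and 0.19 on the log2 scale (limma adjusted p = 2.8e-06 and 0.000993), and ATP6V1C1 was called lower as well (log2 fold change -0.24, limma adjusted p = 0.00855). NPC2 still fell, by 0.28. Genes share libraries and are not independent replicates, so these coefficients describe the list and no more.

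The 3 compounds were compared at the same dose and time. The members moved with MS177 in the comparison with each of the other groups, all of which use the same MS177 libraries. Against MS177N1, 13 members rose and 16 fell, where 57.2% of all genes were called (28.7% higher and 28.5% lower). Against C24, 13 rose and 18 fell, where 58.0% of all genes were called (29% higher and 29% lower). Only 2 members differed in call from the comparison with DMSO: GUSB was not called against MS177N1 (log2 fold change -0.09, limma adjusted p = 0.0781), and TPP1 was called lower against C24 (log2 fold change -0.20, limma adjusted p = 0.00672). CD68 was higher with MS177 than with MS177N1 by 2.32 and than with C24 by 2.19 on the log2 scale (SE 0.11 for both), and CTSC was lower by 0.81 and 0.88.

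Neither MS177N1 nor C24 moved any member past the threshold. With MS177N1 against DMSO limma called 0 of the 41, where 0.0352% of all genes were called, and 2 members had an unadjusted p under 0.05. These were CTSZ (log2 fold change -0.24, SE 0.08) and NPC2 (-0.17, SE 0.07), both with a limma adjusted p of 0.963. With C24 against DMSO limma called 0 of the 41, where 0.0915% of all genes were called, and TPP1 alone had an unadjusted p under 0.05 (log2 fold change 0.13, limma adjusted p = 0.906). The 41 log2 fold changes lay between -0.24 and 0.14 for MS177N1 and between -0.09 and 0.13 for C24.

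A missed threshold does not show that a compound left a gene as it was, so the 95% intervals matter. For CD68 the interval of the log2 fold change ran from -0.29 to 0.19 with MS177N1 and from -0.16 to 0.31 with C24, and for CTSC it ran from -0.11 to 0.12 and from -0.04 to 0.18. Changes of the size seen with MS177 lie outside these intervals. For GAA, with its few reads, the intervals reached from -0.39 to 0.67 and from -0.58 to 0.48, and even moderate changes would have been missed.

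Between the nondegrading compounds themselves, MS177N1 against C24, limma called 0 of the 41 members, where 0.0141% of all genes were called, and 3 members had an unadjusted p under 0.05. NPC2 was lower with MS177N1 than with C24 by 0.24 on the log2 scale (95% interval -0.40 to -0.09), CTSZ by 0.20 (95% interval -0.37 to -0.02) and CD63 by 0.18 (95% interval -0.35 to -0.01), all with a limma adjusted p of 0.998.

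**Figure D4:**
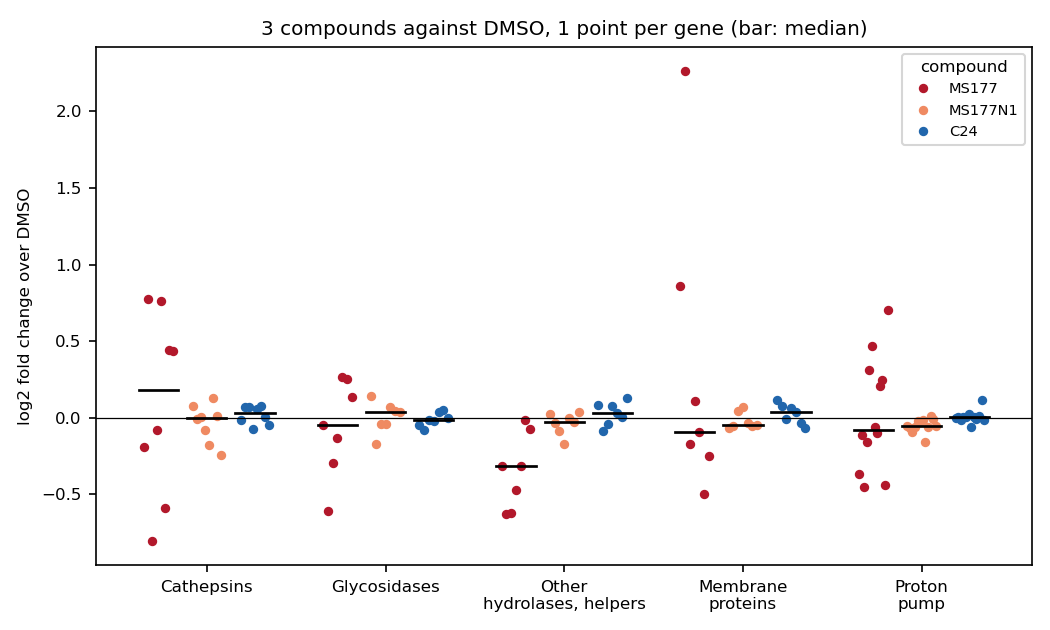
Log2 fold change over DMSO (vertical axis) of each member (point) with MS177, MS177N1 and C24, by role, with the median as a bar. MS177 values spread from -0.81 to 2.27, while those of MS177N1 and C24 stay between -0.24 and 0.14, and all 3 share the DMSO libraries.

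The members cover a wide range of levels. To compare genes, normalized reads were divided by the length of 1 principal transcript per gene in GENCODE 29, in kilobases. In DMSO libraries PSAP was highest with 7828 ± 17.1 normalized reads per kilobase (SD, n = 2), followed by 3 pump subunits, ATP6V1F with 6387 ± 678, ATP6V0B with 5431 ± 169 and ATP6V0C with 4937 ± 329. Next came GUSB, CTSD, LAMP1 and CD63, of which LAMP1 (2507 ± 40.4) and CD63 (2442 ± 214) did not differ beyond their spread. At the other end stood CTSH with 90.3 ± 8.94, CTSL with 51.3 ± 12.4 and GAA with 19.6 ± 4.13.

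The V1 subunits differed widely per length. ATP6V1A had 767 ± 54.8 normalized reads per kilobase in DMSO libraries, ATP6V1B2 990 ± 6.72 and ATP6V1C1 130 ± 7.46. With MS177, CD63 had 4433 normalized reads per kilobase, close to the means of ATP6V1F with 4718 and ATP6V0C with 4443. CD68 had 814 per kilobase with MS177 and 170 with DMSO. It stood in the middle of the members with MS177 and near their low end with DMSO.

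A further 92 genes of the lysosome were listed for comparison, of which 86 were measured and tested. With MS177 against DMSO, 34 rose, 20 fell and 32 were not called, and the median log2 fold change was 0.13. The share called was 62.8%, between the 57.8% of all genes and the 66.0% of genes with at least 50 normalized reads. Most but not all of the 86 reached that level. Against the same DMSO libraries limma called 0 of the 86 with MS177N1 and 0 with C24, with 4 and 2 genes at an unadjusted p under 0.05. The other membrane proteins rose in 9 of 18 genes and fell in 2, where 28.8% of all genes rose and 28.9% fell. Among them were the largest rise and the largest fall of the 86 genes. LAMP3, a LAMP protein known from mature dendritic cells, had 1850 and 1755 normalized reads with MS177, 215 and 193 with MS177N1, 219 and 196 with C24, and 236 and 214 with DMSO (7.99-fold, limma adjusted p = 5.71e-12). LAPTM4B, a transmembrane protein of late endosomes, averaged 26.1 ± 6.67 normalized reads with MS177, 94.6 ± 11.6 with MS177N1, 81.9 ± 1.61 with C24 and 97.9 ± 2.99 with DMSO (SD, n = 2 each; log2 fold change -1.89, SE 0.24, limma adjusted p = 5.67e-06). The cystine exporter CTNS rose too (log2 fold change 0.98).

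The other glycosidases and sulfatases rose in 9 of 15 genes and fell in 3, where 28.8% of all genes rose and 28.9% fell. The glycosidases above split otherwise, but the lists were not tested against each other. AGA, which cleaves the bond between sugar and asparagine, rose by 0.90 on the log2 scale, and HYAL2, a hyaluronidase, fell by 1.19. Of the other cathepsins and peptidases 2 of 8 rose and 3 fell. LGMN, the asparaginyl endopeptidase that processes cathepsins, had 5835 and 5180 normalized reads with MS177, 2634 and 2681 with MS177N1, 2806 and 2732 with C24, and 2867 and 2626 with DMSO. It rose about as strongly as CD63 (log2 fold change 1.00, SE 0.06, limma adjusted p = 1.97e-09). Of the other lipid and phosphate hydrolases 3 of 8 rose and 2 fell, and of the other pump subunits 2 of 9 rose and 2 fell. In the list for the mannose 6-phosphate route, which sorts hydrolases to the lysosome, 2 of 10 rose and 5 fell. That list also holds SORT1, another sorting receptor, and SUMF1, a sulfatase-activating enzyme, which are not parts of the route. GNPTAB, a gene of the enzyme that makes the tag, was lower by 0.55 on the log2 scale. GNPTG, another gene of that enzyme, had 1229 and 1036 normalized reads with MS177 and 950 and 921 with DMSO. The largest change of this list was upward, in SORT1 (1870 and 2015 with MS177, 1112 and 1170 with DMSO).

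**Figure D5:**
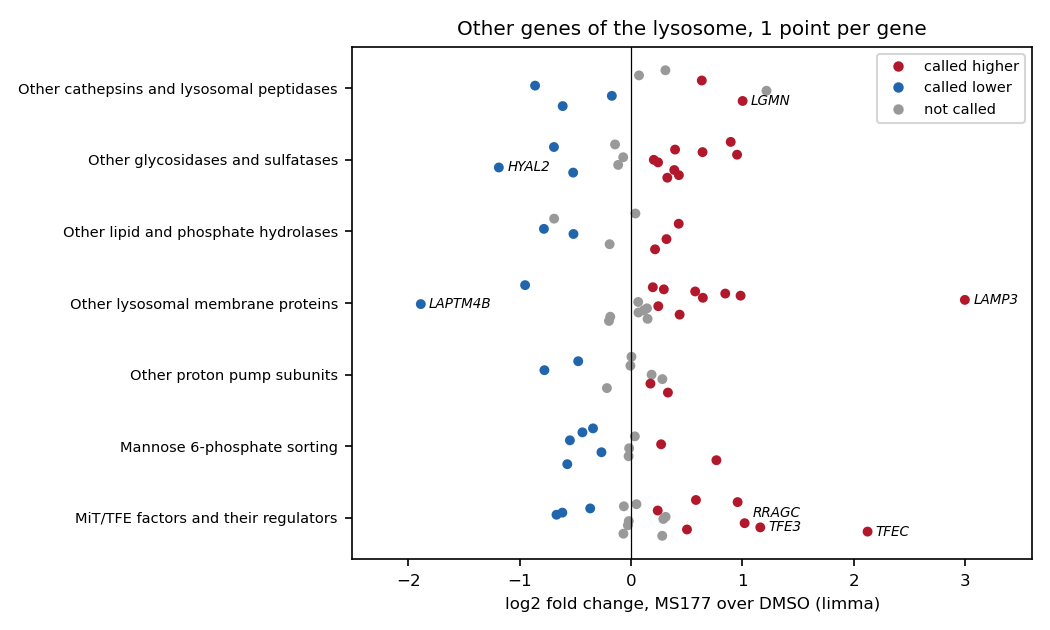
Log2 fold change of MS177 over DMSO (horizontal axis) for the 86 other lysosomal genes tested, 1 point a gene, in 7 lists. LAMP3, which rose 7.99-fold, and LAPTM4B at -1.89 are the outermost points, and every list holds genes called in both directions.

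The factors that bind CACGTG and their regulators rose in 7 of 18 genes and fell in 3, where 28.8% of all genes rose and 28.9% fell. TFE3 had 3011 and 2884 normalized reads with MS177, 1400 and 1338 with MS177N1, 1268 and 1322 with C24, and 1321 and 1314 with DMSO. Both MS177 libraries lay far above all 6 others (log2 fold change 1.16, SE 0.06, limma adjusted p = 3.08e-10). TFEB had 778 and 734 normalized reads with MS177, 490 and 539 with MS177N1, 537 and 535 with C24, and 530 and 535 with DMSO (log2 fold change 0.50, SE 0.09, limma adjusted p = 0.000125). MITF was not called (log2 fold change 0.31, limma adjusted p = 0.0713), and TFEC, at 58.9 and 69.2 normalized reads with MS177 and 15.4 and 12.5 with DMSO, rose at a low level. These are mRNA levels: the factors are known to be controlled largely by where they sit in the cell, which RNA does not show. Of the regulators at the lysosomal surface, RRAGC (log2 fold change 1.02), FNIP1 (0.96) and FLCN (0.58) rose and LAMTOR5 (-0.67), LAMTOR4 (-0.62) and LAMTOR2 (-0.37) fell.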

How the data were processed

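The deposited table gives log2 values for 16295 genes in 8 libraries, which the file headers call normalized. Per the labels' protocols, RNA was purified with a Qiagen RNeasy kit and 1 µg of it entered NEBNext Ultra II libraries. Per the submitters' processing notes, the build was hg19. The tools they list, without role or order, are Salmon 0.1.19, DESeq2 1.38.2 and STAR 2.4.2. From the values themselves, the scale is a variance-stabilizing transformation with the minimum 5.967655733 at 0 reads. It was inverted, and 130360 of 130360 recovered values were whole reads within 0.01. The reads per library set the precision of low genes such as GAA and CTSL.

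The test covered the 14200 genes that reached 10 normalized reads in 2 or more libraries and 15 reads in total, and left out 2095. The log2 of normalized reads plus a pseudocount of 1 was modelled in R 4.3.3 by limma 3.58.1 with its robust and trend options and statmod 1.5.0, in 1 fit over all 8 libraries, Benjamini-Hochberg adjustment over all genes tested and a threshold of 0.05. The fit was tested on simulated data in which far fewer genes changed than were called with MS177. That test does not show how the fit behaves where most genes change. Intervals are 95% intervals of that fit. Lengths, GC content, overlaps and pseudogenes come from GENCODE 29, and promoters from RefSeq on GRCh38.p14. No coordinates were taken from the build of the deposited table.

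The members, the lists and the rule for named genes were chosen with earlier results of these data known. Values in every library are given for the 3 largest called rises and falls of each role, and for CD68 and LAMP1. Markers of plasma cells, of monocytes, macrophages and granulocytes, of T and NK cells, and of stromal and epithelial cells were listed for comparison. Alternatives were scaling by total reads, a pseudocount of 5, no filter, a filter at 50 normalized reads, the deposited log2 values, no trend or robust option, only the groups compared, a replicate block, removal of length and GC trends, and each library left out.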

Additional observations from a re-analysis of the deposited data

How the results depend on the processing

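Under 17 alternatives, 650 of the 697 log2 fold changes of the members kept their sign and their side of the threshold, and every count of called members stayed within 1.5 times its value. Of the 30 members called with MS177 against DMSO, 24 kept their call in all 17, and ATP6V1D, ATP6V1E1, CTSA, CTSL, GUSB and LAMP1 lost it in at least 1. With 1 library left out in turn, 12 to 13 members rose and 16 to 17 fell against DMSO, 10 to 13 rose and 15 to 17 fell against MS177N1, and 11 to 13 rose and 15 to 20 fell against C24. With 1 library left in a group, that library is assumed to vary like the others.

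The 15 values that changed sign all belong to members not called with MS177 against DMSO. Scaling by total reads gave log2 fold changes of 0.0076 for CTSD, 0.037 for GAA, 0.011 for TPP1, 0.070 for PSAP and 0.025 for ATP6V1B2, and it moved the median of all genes to 0.09. With length and GC trends removed, the values were 0.033 for CTSD, 0.0034 for GAA, 0.0029 for PSAP, -0.00080 for LAMP2 and 0.060 for ATP6V0C. With 1 library left out in turn, GAA ranged from -0.26 (without DMSO replicate 1) to 0.17 (without DMSO replicate 2), PSAP from -0.043 to 0.013 (without MS177 replicates 1 and 2) and MCOLN1 from -0.20 to 0.013 (likewise). Without MS177 replicate 2 GAA was 0.050, and without DMSO replicate 1 MCOLN1 was 0.0039. The cause was not tested.

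Replicates with the same number did not deviate together (r between -0.06 and 0.06 over the 6 pairs of groups), so the numbers were not taken as pairs. With a replicate block 13 members rose and 18 fell with MS177 against DMSO, ATP6V0C being the member added (limma adjusted p = 0.0122), 13 rose and 16 fell against MS177N1, and 13 rose and 19 fell against C24. Depth limits GAA, CTSL and CTSH, which had the fewest normalized reads of the 41.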
